A study of Mus musculus with 13 samples.

Results

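A set of 38 cell cycle genes, 18 that act in DNA replication and 20 that act in mitosis, was followed across 13 RNA-seq libraries of common lymphoid progenitors (CLP), the early lymphoid cells of mouse bone marrow. The genes were chosen by symbol, as well-known members of each phase, and all 38 were found among the 24072 RefSeq identifiers in the count files. The mice were wild-type C57BL/6, and no age, sex or number of animals is given. FACS on Ly6D and Gfra2, which are surface proteins, divided the progenitors into cells without either protein (Ly6D-Gfra2-, 6 libraries), cells with Ly6D only (Ly6D+Gfra2-, 4 libraries) and cells with both (Ly6D+Gfra2+, 3 libraries). No agent or genetic change separates the groups, only the sort. Nothing in the labels says that the replicates came from separate mice, so every p-value here is set against a spread between libraries that may be technical.

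A dividing cell copies its DNA in S phase and separates the copies in mitosis. Each origin of replication is loaded with the Mcm2 to Mcm7 helicase by Cdc6 and Cdt1, the helicase is fired with the help of Cdc45 and the GINS complex, and ribonucleotide reductase, thymidylate synthase and thymidine kinase supply the DNA precursors. Many of these genes are switched on by E2F transcription factors, whereas most mitosis genes carry a CHR element and CCAAT boxes, which bind the MuvB complex and NF-Y, and peak in G2 and mitosis. Early lymphoid progenitors are known as a cycling population, and the levels of both sets in a bulk library depend on how many of its cells are in each phase. In bulk samples, fewer cycling cells and less of an RNA per cycling cell cannot be told apart.

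Promoter sequence is shown first because the 2 sets of genes differ in it and because it makes no use of the counts. RefSeq windows of 300 bases, from 250 before to 50 after a start of each gene on build GRCm38.p6, were present for 15 of the 18 replication genes (16 windows) and for 16 of the 20 mitosis genes (16 windows). Both strands were searched for an E2F core in 4 spellings, the first TTGGCGC, the second TTCCCGC, the third TTCGCGC and the fourth TTGCCGC. They were also searched for the letters of the CHR element (TTTGAA) and those of the CCAAT box. In 3 places an E2F core and a CCAAT box overlapped, 2 of them in Mcm7 and 1 in Ccnb1. A match is a description of letters, not of binding. For 3 genes of each set, up to 180 bases before that start are printed 5′ to 3′ on the gene's strand. For Mcm5 and Top2a the RefSeq gene span begins 41 and 10 bases before the start that defines the window, and those bases are left out. Capitals mark E2F cores in the replication genes and CHR elements in the mitosis genes, read on either strand.
Mcm5, chr8:75109329-75109467, plus strand: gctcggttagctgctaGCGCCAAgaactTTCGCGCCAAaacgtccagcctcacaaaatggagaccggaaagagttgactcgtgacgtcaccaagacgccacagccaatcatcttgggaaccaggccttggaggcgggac
Mcm6, chr1:128359706-128359885, minus strand: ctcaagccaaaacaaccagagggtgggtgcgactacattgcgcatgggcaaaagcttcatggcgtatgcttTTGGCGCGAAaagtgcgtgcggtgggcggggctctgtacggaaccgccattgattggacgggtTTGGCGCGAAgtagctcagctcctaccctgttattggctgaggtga
Rrm1, chr7:102441515-102441694, plus strand: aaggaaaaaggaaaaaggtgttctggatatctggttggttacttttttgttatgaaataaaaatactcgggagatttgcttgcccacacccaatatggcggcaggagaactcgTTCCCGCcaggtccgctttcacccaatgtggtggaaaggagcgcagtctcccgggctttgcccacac
Ccnb2, chr9:70421555-70421734, minus strand: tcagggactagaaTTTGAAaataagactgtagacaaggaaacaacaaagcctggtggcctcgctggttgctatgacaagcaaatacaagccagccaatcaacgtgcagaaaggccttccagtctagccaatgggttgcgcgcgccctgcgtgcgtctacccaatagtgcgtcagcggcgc
Top2a, chr11:99024200-99024369, minus strand: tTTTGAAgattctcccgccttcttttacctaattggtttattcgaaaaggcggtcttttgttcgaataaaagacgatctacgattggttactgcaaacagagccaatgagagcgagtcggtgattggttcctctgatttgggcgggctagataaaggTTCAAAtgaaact
Cdk1, chr10:69352913-69353092, minus strand: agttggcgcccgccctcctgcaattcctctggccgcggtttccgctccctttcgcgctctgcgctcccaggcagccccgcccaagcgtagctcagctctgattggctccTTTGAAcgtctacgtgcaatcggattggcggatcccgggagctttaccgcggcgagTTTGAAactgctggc

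The stretch before Mcm5 holds 3 E2F cores, 2 of which overlap on opposite strands, and the stretch before Mcm6 holds 4 in 2 such overlapping pairs. Rrm1 has 1 E2F core and 2 CCAAT boxes in the bases shown. Ccnb2 has 1 CHR element in the bases shown, with 3 CCAAT boxes downstream of it. Another CHR element of Ccnb2 lies downstream of these boxes, at bases 5 to 10 after the start, and is not printed. In the bases shown, Top2a has 2 CHR elements with 4 CCAAT boxes, and Cdk1 has 2 CHR elements with 2 CCAAT boxes. Cdk1, a mitosis gene here, also has 2 E2F cores in its window, left in lower case.

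Over the whole windows, an E2F core was present in 9 of 16 replication windows (56.2%), in 3 of 16 mitosis windows (18.8%) and in 9.57% of all 32851 windows. The CHR element had the opposite distribution, with 2 of 16 replication windows (12.5%), 11 of 16 mitosis windows (68.8%) and 17.9% of all windows. CCAAT boxes were found in 10 of 16 replication windows (62.5%), 14 of 16 mitosis windows (87.5%) and 37.4% of all. All 11 mitosis windows with a CHR element also had a CCAAT box, a pairing found in 6.95% of all windows. The further genes of each phase, described below, had like shares, with an E2F core in 34 of 56 windows (60.7%) for replication and 11 of 60 (18.3%) for mitosis, and a CHR element in 10 of 56 (17.9%) and 42 of 60 (70.0%). The plot of match positions shows where the letters lie in each member's window.

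The 13 libraries held 6892728 to 23705975 counts. Levels are CPM, counts per 1000000 of the library size scaled by TMM, and no level is corrected for transcript length, so levels are compared between groups and not between genes. The library prefix is P for 5 libraries, replicates 1, 2 and 3 of Ly6D-Gfra2- with replicates 1 and 2 of Ly6D+Gfra2-, and T for the other 8. What the prefix stands for is not stated, and all 3 Ly6D+Gfra2+ libraries are T. The sort genes mostly followed the labels, with Gfra2 at 287 to 515 CPM in Ly6D+Gfra2+ and at 0 to 14.7 CPM in the other 10 libraries, and Ly6d at 158 to 507 CPM in the 7 Ly6D-positive libraries. The library labelled Ly6D-Gfra2- replicate 3 went against its label with 213 CPM of Ly6d, against at most 8.30 CPM in the other 5. Ly6D+Gfra2- replicate 1 had counts for 11636 genes, against 12964 to 13364 in the rest of its group, and Ly6D-Gfra2- replicate 5 had 177 CPM of S100a9, a granulocyte gene, and 141 CPM of Hbb-bs, a haemoglobin gene.

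The CLP markers Il7r, Flt3, Kit, Dntt and 3 others had counts in all 13 libraries. B-cell precursor markers summed to 25.0 to 144 CPM in Ly6D-Gfra2-, 146 to 204 CPM in Ly6D+Gfra2- and 1399 to 1434 CPM in Ly6D+Gfra2+, and Pax5, which commits cells to the B lineage, was at 0 in 4 of the 6 Ly6D-Gfra2- libraries. Granulocyte and monocyte markers summed to 644 to 1429, 428 to 585 and 198 to 466 CPM in the same order, and plasmacytoid dendritic markers to 766 to 2042, 1738 to 2066 and 536 to 808 CPM. The library labelled Ly6D-Gfra2- replicate 3 gave the 2042 CPM and also the 144 CPM of B-cell precursor markers. The other libraries of its group reached 1152 and 68.3 CPM. Erythroid markers summed to 65.4 to 516, 40.8 to 101 and 21.8 to 138 CPM. T and NK markers summed to 102 to 153, 82.3 to 186 and 65.2 to 204 CPM, most of it from Lck and Nkg7, with Cd3e, Cd3g and Ncr1 at most 1.69 CPM in any library. Between 12904 and 13969 genes had a count in Ly6D-Gfra2- libraries and between 10837 and 12369 in Ly6D+Gfra2+ libraries. The part of these values in the cell cycle levels was not tested.

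All 38 cell cycle genes had counts in every library and passed the filter on low counts that 12722 identifiers passed. The smallest count of any of them was 18, for Ccne1. The summed level of the 18 replication genes was 2225 to 3024 CPM in Ly6D-Gfra2-, 2548 to 3770 CPM in Ly6D+Gfra2- and 2171 to 2346 CPM in Ly6D+Gfra2+. The Ly6D+Gfra2+ sums lay below all 4 Ly6D+Gfra2- sums but overlapped with those of Ly6D-Gfra2-. Within Ly6D-Gfra2- the sums were 2779 to 3024 CPM with prefix P and 2225 to 2486 CPM with prefix T. In Ly6D+Gfra2- the prefix T libraries had 2835 and 2548 CPM. The sums are not corrected for prefix, and every Ly6D+Gfra2+ library is of prefix T. The part of prefix in these sums was not tested. The top of 3770 CPM was Ly6D+Gfra2- replicate 1, and the other 3 libraries of that group had 2548 to 2835 CPM. The summed level of the 20 mitosis genes was 4246 to 7193, 4756 to 6907 and 5957 to 6925 CPM, so that all 3 groups overlapped. Without Ly6D+Gfra2- replicate 1 the lowest of its group was 6276 CPM. The ratio of the mitosis to the replication sum was 1.48 to 3.18 in Ly6D-Gfra2-, 1.26 to 2.71 in Ly6D+Gfra2- and 2.54 to 3.19 in Ly6D+Gfra2+. It was 2.27 to 2.71 in Ly6D+Gfra2- without replicate 1. Prefix P libraries had ratios of 1.26 to 2.46. Among prefix T libraries alone the ratio was 2.39 to 3.18 in Ly6D-Gfra2- and 2.31 and 2.71 in Ly6D+Gfra2-, overlapping with Ly6D+Gfra2+. Mki67 and Top2a, both with long transcripts, made up 50.6% to 62.0% of the mitosis sum.

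**Figure D1:**
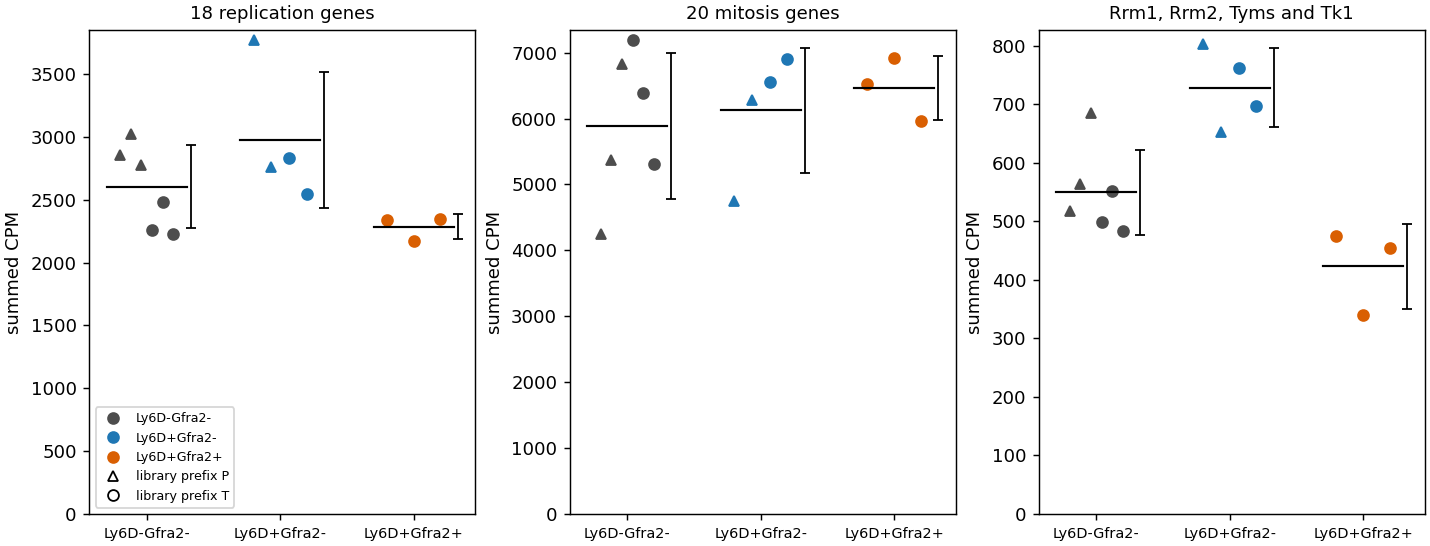
Summed CPM (y axis) of the replication genes and of the mitosis genes in each library, by sorted group, with triangles for prefix P and circles for prefix T. Horizontal lines are group means and vertical bars 1 SD to each side. The Ly6D+Gfra2+ replication sums of 2171 to 2346 CPM lie below the Ly6D+Gfra2- sums of 2548 to 3770 CPM, and the mitosis sums overlap. Within Ly6D-Gfra2- the replication sums are 2779 to 3024 CPM with prefix P and 2225 to 2486 CPM with prefix T.

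Most members varied less than the median tested gene. The coefficient of variation over the 13 libraries had a median of 37.6% for the replication genes (14.5% for Pcna to 76.0% for Cdt1) and of 33.2% for the mitosis genes (14.4% for Ccna2 to 81.2% for Cdc20). The median was 61.1% for all tested genes and 48.3% for the 8894 tested genes whose mean level lay within the members' range. That range is wide, so the second median does not match genes to members by level. These are descriptions of the same 13 libraries and carry no test.

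Between the groups, no member passed the test. With edgeR's quasi-likelihood test and Benjamini-Hochberg adjustment over 12722 genes at an adjusted p under 0.05, 0 of the 38 were called in Ly6D+Gfra2- against Ly6D-Gfra2- (0.0% of all genes called), 0 in Ly6D+Gfra2+ against Ly6D+Gfra2- (0.409%) and 0 in Ly6D+Gfra2+ against Ly6D-Gfra2- (1.39%). At an unadjusted p under 0.05, the counts were 1, 6 and 2 of 38, where all genes gave 4.71%, 13.2% and 15.4%. DESeq2 called 4 members, all in Ly6D+Gfra2+ against Ly6D+Gfra2-, where it called 4.28% of all genes, and 0 in the other comparisons, where it called 0.157% and 6.2%. The largest change of any member in these 3 comparisons was a log2 fold change of -1.48. The 95% interval of the log2 fold change lay within 1 log2 unit on either side of 0 for 9 replication and 12 mitosis genes in the first comparison, 7 and 8 in the second, and 8 and 8 in the third. For the others the interval reached past a 2-fold difference in at least 1 direction.

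**Figure D2:**
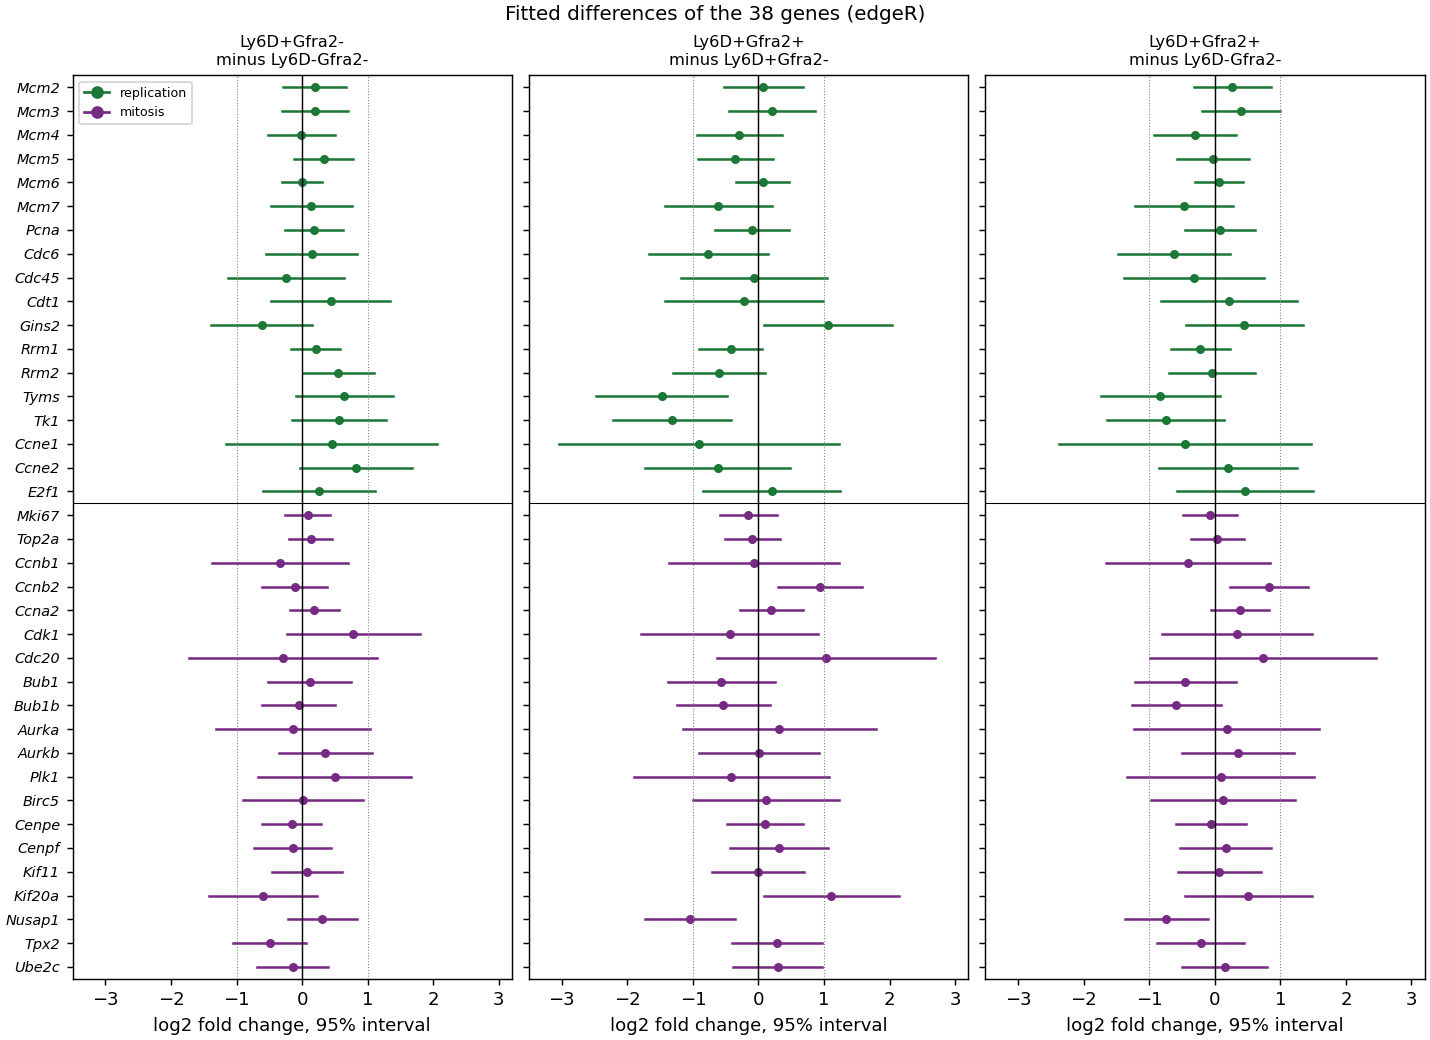
Log2 fold change (points) with its 95% interval (bars) for each of the 38 genes in the 3 comparisons, from the edgeR fit over 13 libraries. Replication genes are above the horizontal line and mitosis genes below it. Tyms and Tk1 lie farthest below 0 in Ly6D+Gfra2+ against Ly6D+Gfra2-, at -1.48 and -1.32, and none of the 38 genes passed the adjusted threshold.

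Of the 5 roles among the replication genes, the supply of DNA precursors was the only one whose summed level did not overlap between Ly6D+Gfra2- and Ly6D+Gfra2+. Rrm1 and Rrm2 (the large and small subunits of ribonucleotide reductase), Tyms (thymidylate synthase) and Tk1 (thymidine kinase) together summed to 803, 652, 761 and 697 CPM in Ly6D+Gfra2- replicates 1, 2, 5 and 6, and to 475, 340.0 and 455 CPM in Ly6D+Gfra2+ replicates 4, 5 and 6. The Ly6D-Gfra2- libraries had 484 to 684 CPM. The highest of these was the library labelled Ly6D-Gfra2- replicate 3, and the other 5 reached 564 CPM. The Ly6D+Gfra2+ sums were thus below every other library, and the Ly6D+Gfra2- sums were above every Ly6D-Gfra2- library but that one. Among all tested genes, taken singly, 5.71% lay wholly lower in Ly6D+Gfra2+ than in Ly6D+Gfra2-. Dck (deoxycytidine kinase), a further gene of precursor supply, did not separate these groups. It was at 234 to 342 CPM in Ly6D+Gfra2+, 163 to 469 CPM in Ly6D+Gfra2- and 65.6 to 205 CPM in Ly6D-Gfra2-. All 6 plasmacytoid dendritic markers had counts in every Ly6D+Gfra2- library, with Siglech at 230 to 346 CPM there and at 9.10 to 29.6 CPM in Ly6D+Gfra2+, where Spib was at 0 in 2 of 3 libraries. Of the 8 B-cell precursor markers, all 8 had counts in every Ly6D+Gfra2+ library, and Igll1, a part of the surrogate light chain, was at 0 in 3 of 4 Ly6D+Gfra2- libraries. The part of these cell type differences in the precursor gene levels was not tested. In RefSeq's annotation of GRCm38.p6 these genes lie at separate places, Tyms (NM_021288) at chr5:30038546-30073645, Tk1 (NM_009387) at chr11:117815519-117826087, Rrm1 (NM_009103) at chr7:102441695-102469771 and Rrm2 (NM_009104) at chr12:24708254-24714146. The counts are over whole genes, so no exon or untranslated part is measured apart.

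Tyms was at 185, 69.0, 115 and 98.7 CPM in Ly6D+Gfra2- replicates 1, 2, 5 and 6, at 44.8, 20.7 and 65.2 CPM in Ly6D+Gfra2+ replicates 4, 5 and 6, and at 52.9 (lowest), 73.0 (median) and 105 CPM (highest) in Ly6D-Gfra2-. All 3 Ly6D+Gfra2+ values lay below all 4 Ly6D+Gfra2- values. The log2 fold change between them was -1.48 (SE 0.47, edgeR adjusted p = 0.193), and DESeq2 gave -1.47 (adjusted p = 0.0402). Without the 3 libraries that stand apart, a setting chosen after seeing the data, the edgeR value was -1.23. Within prefix T it was -1.30. With Ly6D-Gfra2- as the base, Ly6D+Gfra2+ had -0.83 (SE 0.43, adjusted p = 0.374; -0.50 without Ly6D+Gfra2+ replicate 5), and Ly6D+Gfra2- had 0.65 (SE 0.35, adjusted p = 0.999), which became 0.24 without Ly6D+Gfra2- replicate 1, the highest library.

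Tk1 had 2 high libraries in Ly6D+Gfra2-, replicates 5 and 6 at 154 and 110.1 CPM, while replicates 1 and 2 had 49.6 and 49.9 CPM. The high pair are the prefix T libraries of that group. In Ly6D+Gfra2+ Tk1 was at 31.4, 51.1 and 43.3 CPM and in Ly6D-Gfra2- between 40.4 and 64.8 CPM with a median of 57.3 CPM, so the groups overlapped. Between Ly6D+Gfra2+ and Ly6D+Gfra2- the log2 fold change was -1.32 (SE 0.43, edgeR adjusted p = 0.194; DESeq2 -1.31, adjusted p = 0.0432). It was -1.66 within prefix T and -0.97 without Ly6D+Gfra2- replicate 5. Against Ly6D-Gfra2- it was -0.75 (SE 0.42, adjusted p = 0.421).

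Rrm2 was at 212, 176, 190.4 and 176 CPM in Ly6D+Gfra2-, at 163, 107 and 85.8 CPM in Ly6D+Gfra2+ and at 83.7 (lowest), 128 (median) and 182 CPM (highest) in Ly6D-Gfra2-. The Ly6D+Gfra2- libraries were the most alike of the 3 groups and lay above every Ly6D+Gfra2+ library. Its log2 fold change was 0.55 (SE 0.26, unadjusted p = 0.0452, adjusted p = 0.999 with edgeR) in Ly6D+Gfra2- against Ly6D-Gfra2- and -0.60 (SE 0.33, adjusted p = 0.453; -0.91 without Ly6D+Gfra2+ replicate 4) in Ly6D+Gfra2+ against Ly6D+Gfra2-. Between Ly6D+Gfra2+ and Ly6D-Gfra2- it was -0.05 (SE 0.31), a sign that leaving out single libraries turned. Rrm1 was at 357, 357, 302 and 312 CPM in Ly6D+Gfra2- and at 236, 161 and 261 CPM in Ly6D+Gfra2+, again with no overlap between those groups, while Ly6D-Gfra2- spanned both at 229 to 385 CPM. Between these 2 groups the log2 fold change was -0.43 (SE 0.23, edgeR adjusted p = 0.436).

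**Figure D3:**
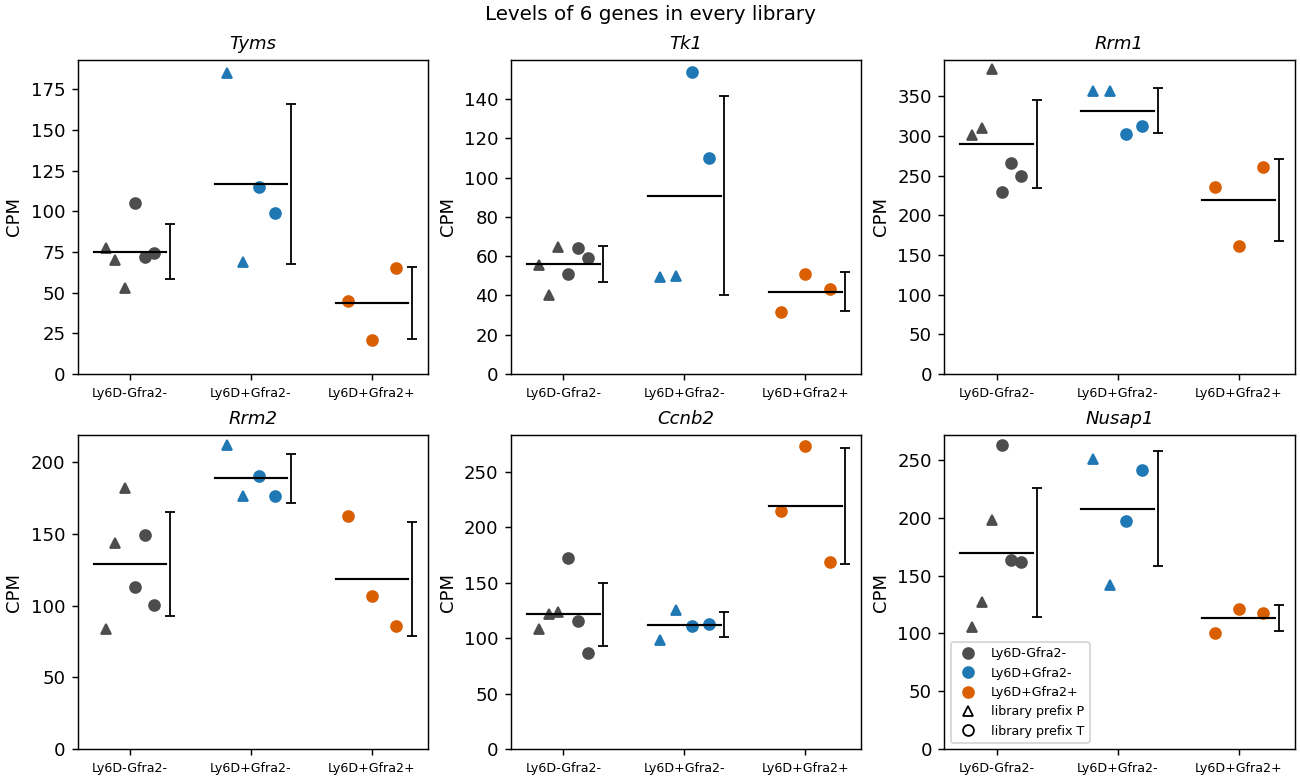
CPM (y axes, from 0) of Tyms, Tk1, Rrm1, Rrm2, Ccnb2 and Nusap1 in each library, by sorted group, with triangles for prefix P and circles for prefix T. Horizontal lines are group means and vertical bars 1 SD to each side. For Tyms, Rrm1, Rrm2 and Nusap1 the 3 Ly6D+Gfra2+ libraries lie below the 4 Ly6D+Gfra2- libraries, and for Ccnb2 they lie above them.

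The helicase genes showed no such separation. Their 6 levels summed to 1320 to 1918 CPM in Ly6D-Gfra2-, 1319 to 2217 CPM in Ly6D+Gfra2- and 1359 to 1408 CPM in Ly6D+Gfra2+. Within Ly6D-Gfra2- they were 1580 to 1918 CPM with prefix P and 1320 to 1439 CPM with prefix T. The top of Ly6D+Gfra2- was 1642 CPM without replicate 1. Mcm2, a subunit of the ring, was at 244, 225, 309 and 180 CPM in Ly6D+Gfra2-, at 219, 276 and 187 CPM in Ly6D+Gfra2+ and at 139, 216 and 319 CPM as the lowest, median and highest of Ly6D-Gfra2-. Its log2 fold changes were 0.19 (SE 0.23), 0.08 (SE 0.29) and 0.27 (SE 0.28) in the order of comparisons above. All 3 intervals lay within a 2-fold change. Mcm6 had the narrowest intervals of the replication genes, from -0.31 to 0.31, from -0.34 to 0.46 and from -0.30 to 0.43. Mcm7 averaged 102 ± 65.3 CPM (SD, n = 3) over Ly6D+Gfra2+, 189.8 ± 73.1 CPM (SD, n = 4) over Ly6D+Gfra2- and 169 ± 30.8 CPM (SD, n = 6) over Ly6D-Gfra2-, but the 3 Ly6D+Gfra2+ libraries, at 47.8, 174 and 83.5 CPM, spread from below to above that last mean.

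Mcm3, Mcm4 and Mcm5, the other ring subunits, had log2 fold changes between -0.36 and 0.40 in all 3 comparisons. Cdc6, which recruits the helicase to origins, was at 24.7, 32.0 and 50.3 CPM in Ly6D+Gfra2+, at 129, 60.7, 67.2 and 49.2 CPM in Ly6D+Gfra2- and at 45.7, 68.5 and 94.3 CPM as lowest, median and highest of Ly6D-Gfra2-. The groups overlapped only at the highest Ly6D+Gfra2+ library. Its log2 fold change was -0.77 (SE 0.43, edgeR adjusted p = 0.463) against Ly6D+Gfra2- and -0.62 (SE 0.40, adjusted p = 0.497; -0.95 without Ly6D+Gfra2+ replicate 6) against Ly6D-Gfra2-. Cdt1, its partner in loading, was at 262 CPM in Ly6D+Gfra2- replicate 1 and at 43.3 to 128 CPM in the other 12 libraries.

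Of the firing factors and the sliding clamp, Gins2 had the smallest p. Gins2, a subunit of the GINS complex, was at 121, 100.4 and 72.0 CPM in Ly6D+Gfra2+, at 25.0, 99.0, 32.2 and 55.8 CPM in Ly6D+Gfra2- and at 65.5, 76.6 and 106 CPM as lowest, median and highest of Ly6D-Gfra2-. The 2 low Ly6D+Gfra2- libraries, replicates 1 and 5, lay below every other library, and replicate 2 lay within the Ly6D+Gfra2+ range. The difference between Ly6D+Gfra2+ and Ly6D+Gfra2- was 1.07 log2 units (SE 0.46, unadjusted p = 0.0342, adjusted p = 0.335 with edgeR), opposite in sign to the precursor genes. It was 0.90 without the 3 libraries that stand apart. Pcna, the sliding clamp of the DNA polymerases, was at 142, 104, 178 and 132 CPM in Ly6D+Gfra2-, at 137, 149 and 127 CPM in Ly6D+Gfra2+ and at 112, 123 and 134 CPM as lowest, median and highest of Ly6D-Gfra2-. It varied least of the replication genes, and its log2 fold changes of 0.18 (SE 0.21), -0.10 (SE 0.27) and 0.08 (SE 0.26) had intervals within a 2-fold change. Cdc45, which joins the helicase at firing, had log2 fold changes between -0.32 and -0.07.

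The genes of S-phase entry are Ccne1 and Ccne2, the E cyclins that activate Cdk2, and E2f1, a transcription factor that drives the other replication genes. Ccne2 was at 55.8, 29.7, 49.0 and 39.8 CPM in Ly6D+Gfra2-, at 20.7, 26.0 and 32.3 CPM in Ly6D+Gfra2+ and at 20.8, 21.6 and 39.3 CPM as lowest, median and highest of Ly6D-Gfra2-. The highest Ly6D-Gfra2- value came from the library with Ly6d RNA, replicate 3, and the other 5 reached 25.6 CPM. For Ly6D+Gfra2- against Ly6D-Gfra2- the change was 0.82 log2 units (SE 0.41, edgeR adjusted p = 0.999). E2f1 was at 59.9, 53.6, 32.1 and 98.7 CPM in Ly6D+Gfra2-, at 55.3, 40.2 and 87.2 CPM in Ly6D+Gfra2+ and at 28.0, 54.9 and 88.4 CPM in Ly6D-Gfra2-, with no group apart from another. Its intervals were wide, from -0.60 to 1.11, from -0.84 to 1.25 and from -0.58 to 1.498. Ccne1 had the lowest counts of the members and intervals of over 3 log2 units.

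As a group, the 18 replication genes had 14 positive and 4 negative log2 fold changes in Ly6D+Gfra2- against Ly6D-Gfra2-, with a median of 0.20 against -0.01 for all genes. In Ly6D+Gfra2+ against Ly6D+Gfra2- they had 5 positive and 13 negative, with a median of -0.32 against 0.03. In Ly6D+Gfra2+ against Ly6D-Gfra2- they had 8 positive and 10 negative, with a median of -0.04 against 0.01. The first and second comparisons share the Ly6D+Gfra2- libraries, so their opposite signs are not separate observations. Tyms, Rrm1 and Rrm2 were 3 of 18 with all Ly6D+Gfra2+ libraries below all Ly6D+Gfra2- libraries, where 5.71% of all genes were, and 0 of 18 lay wholly above, where 4.0% were. In the other 2 comparisons 0 of 18 were separated in either direction, where 0.582% of genes lay higher and 0.951% lower in the first, and 4.03% higher and 6.19% lower in the third. The median changes were 0.10, -0.30 and -0.06 without the 3 libraries that stand apart, and 0.25, -0.45 and -0.04 within prefix T.

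The mitosis genes had no common direction. Of the 20, 10 had positive log2 fold changes in Ly6D+Gfra2- against Ly6D-Gfra2- (median -0.02), 11 in Ly6D+Gfra2+ against Ly6D+Gfra2- (median 0.05) and 13 in Ly6D+Gfra2+ against Ly6D-Gfra2- (median 0.10). Ccnb2 and Cenpf were 2 of 20 with all Ly6D+Gfra2+ libraries above all Ly6D+Gfra2- libraries (4.0% of all genes), and Nusap1 was 1 of 20 with all below (5.71%). In the other comparisons 0 of 20 were separated. Within prefix T, where 2 libraries of Ly6D+Gfra2- remain, the 38 had more genes without overlap, as did all genes. For the first comparison 5 replication and 0 mitosis genes lay wholly higher (12.0% of all) and 2 and 1 wholly lower (13.2%). For the second these were 2 and 4 (8.66%), and 6 and 3 (13.6%), and for the third 0 and 1 (7.22%), and 1 and 1 (11.6%). The medians were 0.17, 0.05 and 0.17 without the 3 libraries that stand apart, and 0.12, 0.13 and 0.12 within prefix T.

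Mki67, the proliferation antigen Ki-67 that coats mitotic chromosomes, was at 1694, 2799, 2716 and 2889 CPM in Ly6D+Gfra2-, at 2295, 2724 and 2317 CPM in Ly6D+Gfra2+ and at 1706 (lowest), 2302 (median) and 2935 CPM (highest) in Ly6D-Gfra2-. The groups overlapped, and the 2 lowest libraries, Ly6D+Gfra2- replicate 1 and Ly6D-Gfra2- replicate 1, were both of prefix P. They gave log2 fold changes of 0.08 (SE 0.16), -0.15 (SE 0.21) and -0.07 (SE 0.19), with intervals from -0.26 to 0.42, from -0.59 to 0.28 and from -0.48 to 0.34. Top2a, the topoisomerase that untangles the copied chromosomes, was at 954, 1091, 1296 and 1151 CPM in Ly6D+Gfra2-, at 1005, 1211 and 1113 CPM in Ly6D+Gfra2+ and at 679, 1080 and 1247 CPM as lowest, median and highest of Ly6D-Gfra2-. Its log2 fold changes were 0.13 (SE 0.16), -0.09 (SE 0.20) and 0.04 (SE 0.19). For both genes a 2-fold difference between any 2 groups lay outside the interval, whereas differences smaller than the interval were not detectable.

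Among the genes of mitotic entry the 2 B-type cyclins had different patterns, Ccnb2 (NM_007630), chr9:70407689-70421554 and Ccnb1 (NM_172301), chr13:100778739-100786486. Ccnb2, which partners Cdk1 at the Golgi, was at 215, 274 and 169 CPM in Ly6D+Gfra2+, at 98.8, 126, 111 and 113 CPM in Ly6D+Gfra2- and at 87.0, 119 and 172 CPM as lowest, median and highest of Ly6D-Gfra2-. All 3 Ly6D+Gfra2+ libraries were above every library of the other groups but Ly6D-Gfra2- replicate 4, which stood just above the lowest of them. Its log2 fold change was 0.94 (SE 0.30, edgeR adjusted p = 0.193; DESeq2 0.95, adjusted p = 0.0482) against Ly6D+Gfra2- and 0.83 (SE 0.28, unadjusted p = 0.00878, adjusted p = 0.166 with edgeR) against Ly6D-Gfra2-. Without the 3 libraries that stand apart these were 0.90 and 0.83, and within prefix T 0.96 and 0.81, close to those over all libraries.

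Ccnb1, which partners Cdk1 on the spindle and in the nucleus, was at 18.1, 35.4 and 24.7 CPM in Ly6D+Gfra2+, at 14.2, 17.7, 30.5 and 30.1 CPM in Ly6D+Gfra2- and at 15.4, 25.9 and 55.6 CPM in Ly6D-Gfra2-. The groups overlapped throughout, and its log2 fold changes were -0.34 (SE 0.49), -0.07 (SE 0.61) and -0.40 (SE 0.59). Cdk1, the kinase that both cyclins activate, was at 153 CPM in Ly6D+Gfra2- replicate 1 and at 38.7, 26.2 and 56.4 CPM in the rest of that group. In Ly6D+Gfra2+ it was at 41.6, 49.9 and 46.4 CPM and in Ly6D-Gfra2- at 21.3, 36.9 and 59.8 CPM as lowest, median and highest. In Ly6D+Gfra2- against Ly6D-Gfra2- its log2 fold change of 0.78 (SE 0.48, edgeR adjusted p = 0.999) became 0.04 without that 1 library. Ccna2, the cyclin of S phase and early mitosis, was at 244, 248 and 246 CPM in Ly6D+Gfra2+ and between 161 and 281 CPM elsewhere, and Plk1, the kinase that starts spindle assembly, was at 7.11 to 40.1 CPM.

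Nusap1, which bundles spindle microtubules, was lower in Ly6D+Gfra2+ than in every other library but 1. It was at 100.3, 121 and 118 CPM there, at 251, 142, 197 and 242 CPM in Ly6D+Gfra2- and at 105, 163 and 263 CPM as lowest, median and highest of Ly6D-Gfra2-, where replicate 1 lay within the Ly6D+Gfra2+ range. The log2 fold change was -1.05 (SE 0.32, unadjusted p = 0.00499, adjusted p = 0.181 with edgeR; DESeq2 -1.04, adjusted p = 0.0485) against Ly6D+Gfra2- and -0.74 (SE 0.30, adjusted p = 0.249) against Ly6D-Gfra2-. Without the 3 libraries that stand apart the values were -1.005 and -0.86. Tpx2, which activates Aurora A on the spindle, was at 101, 122, 177 and 181 CPM in Ly6D+Gfra2-, at 119.9, 267 and 198 CPM in Ly6D+Gfra2+ and at 150.3, 188 and 265 CPM in Ly6D-Gfra2-. Its log2 fold change in Ly6D+Gfra2- against Ly6D-Gfra2- was -0.49 (SE 0.26, edgeR adjusted p = 0.999). Kif11, the motor that pushes spindle poles apart, had a log2 fold change of 0.07 in each comparison with Ly6D-Gfra2-, and those of Aurka, the Aurora A kinase, lay between -0.14 and 0.32.

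Among the kinetochore and checkpoint genes, Bub1b was at 127, 78.1 and 122 CPM in Ly6D+Gfra2+, at 141, 154, 107 and 236 CPM in Ly6D+Gfra2- and at 114, 173 and 212 CPM as lowest, median and highest of Ly6D-Gfra2-. Bub1b encodes BubR1, which delays anaphase until chromosomes are attached. Its log2 fold change in Ly6D+Gfra2+ against Ly6D-Gfra2- was -0.59 (SE 0.32, edgeR adjusted p = 0.403). Cenpf, a kinetochore protein, was at 377, 402 and 338 CPM in Ly6D+Gfra2+ and at 96.5, 330, 280 and 322 CPM in Ly6D+Gfra2-. These groups did not overlap, but Ly6D-Gfra2- reached 426 CPM, and the log2 fold change of 0.31 (SE 0.35) against Ly6D+Gfra2- was within its error. It was 0.16 without Ly6D+Gfra2- replicate 1, which had the 96.5 CPM. Cenpe, the kinetochore motor, was at 150 to 366 CPM and Bub1, a checkpoint kinase, at 46.4 to 143 CPM over the 13 libraries.

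Kif20a, a motor of cytokinesis, was at 232, 143 and 62.0 CPM in Ly6D+Gfra2+, at 15.1, 63.7, 63.8 and 78.3 CPM in Ly6D+Gfra2- and at 59.3, 80.5 and 108 CPM as lowest, median and highest of Ly6D-Gfra2-. Ly6D+Gfra2+ replicates 4 and 5 stood above all other libraries and replicate 6 within them. The log2 fold change against Ly6D+Gfra2- was 1.11 (SE 0.49, edgeR adjusted p = 0.342) and 0.59 without Ly6D+Gfra2+ replicate 4. In Ly6D+Gfra2- against Ly6D-Gfra2- it was -0.60 (SE 0.39, adjusted p = 0.999), and -0.30 without Ly6D+Gfra2- replicate 1. Aurkb and Birc5, the Aurora B kinase and its partner survivin, spread more within Ly6D+Gfra2+ (61.7 to 301 CPM and 27.3 to 150 CPM) than between group means. Cdc20, which activates the anaphase-promoting complex, ranged from 3.57 to 145 CPM over the 13 libraries, and Ube2c, its ubiquitin-conjugating enzyme, from 110 to 260 CPM.

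**Figure D4:**
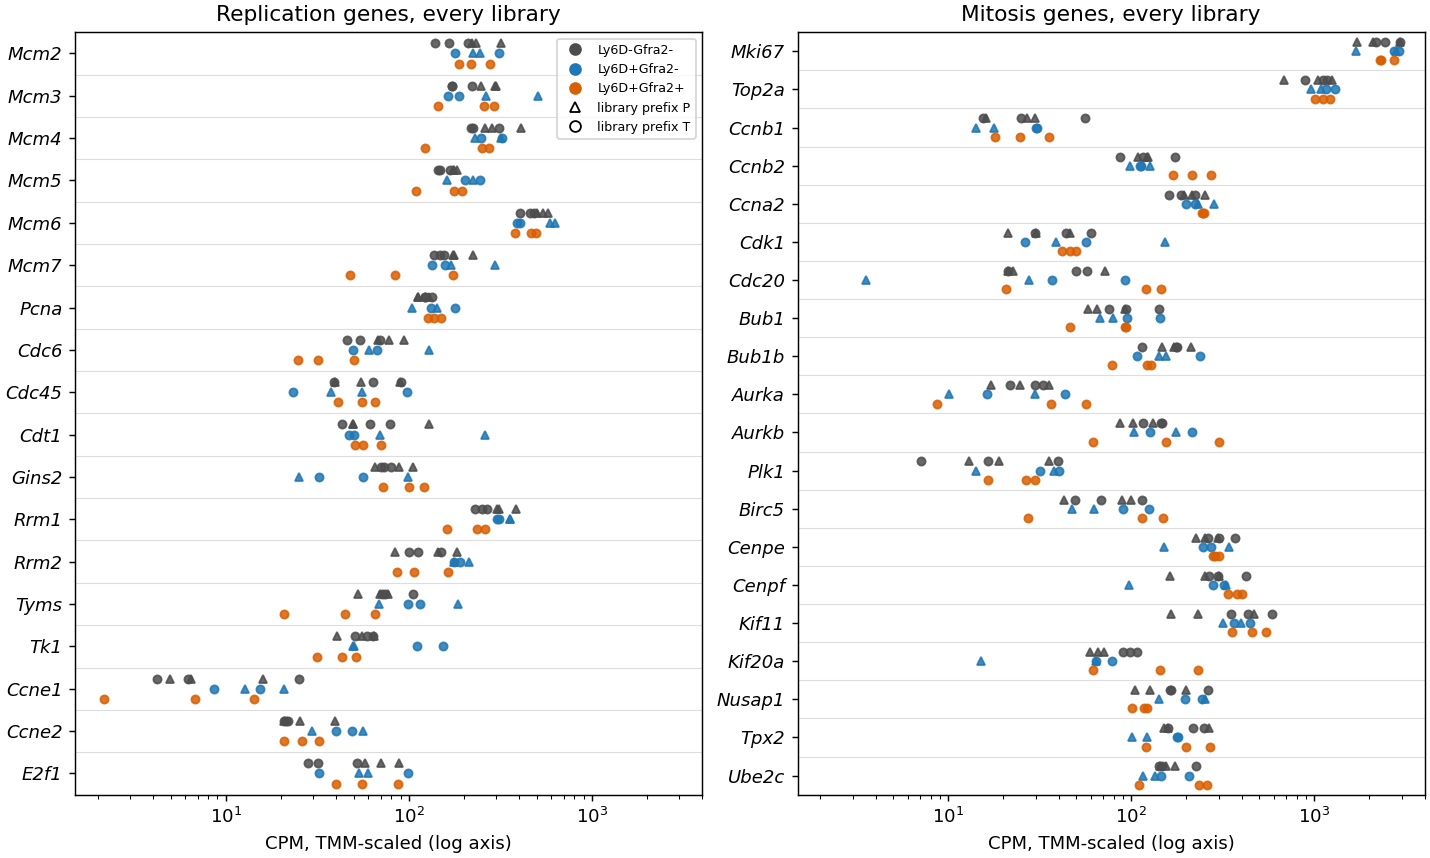
CPM (x axis, log scale) of each of the 38 genes in each of the 13 libraries, coloured by sorted group, with triangles for prefix P and circles for prefix T. Each row is 1 gene. Points of the 3 groups overlap in most rows, and the Ly6D+Gfra2+ points of Ccnb2 lie to the right and those of Tyms and Nusap1 to the left of the Ly6D+Gfra2- points.

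Further genes of each phase, 58 for replication and 62 for mitosis, all passed the low-count filter, and edgeR called 0 of them in any comparison. At an unadjusted p under 0.05 with edgeR, all genes gave 4.71%, 13.2% and 15.4% in the 3 comparisons. The counts for the further replication genes were 3, 1 and 7 of 58, and for the further mitosis genes 6, 8 and 6 of 62. Their medians were 0.12, -0.02 and 0.13 for replication and 0.14, -0.13 and -0.01 for mitosis. In Ly6D+Gfra2+ against Ly6D+Gfra2-, 27 of 58 replication genes and 25 of 62 mitosis genes had positive values, so the excess of negative values among the 18 replication genes (13 of 18) was not seen in the longer list. In that comparison, where DESeq2 called 4.28% of all genes, it called 2 of the further genes, Pold2 and Melk. In Ly6D+Gfra2+ against Ly6D-Gfra2-, where it called 6.2% of all genes, it called 2 of the further genes, Pold2 and Kif23.

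Of these, Pold2, a subunit of DNA polymerase delta, had the smallest p. It ranged from 79.1 to 311 CPM in Ly6D+Gfra2+ and from 33.3 to 71.3 CPM in Ly6D+Gfra2-. Ly6D-Gfra2- averaged 60.7 ± 18.5 CPM (SD, n = 6). Its log2 fold change in Ly6D+Gfra2+ was 1.87 (SE 0.49, edgeR adjusted p = 0.109; DESeq2 adjusted p = 0.00964) against Ly6D+Gfra2- and 1.68 (SE 0.47, edgeR adjusted p = 0.0929; DESeq2 adjusted p = 0.0107) against Ly6D-Gfra2-. Without Ly6D+Gfra2+ replicate 5, the highest library, the first was 0.93 and the second 0.74. With no filter on low counts edgeR called Pold2 in both (adjusted p = 0.0418 and 0.0416). Melk, a mitotic kinase, averaged 29.3 ± 3.82 CPM (SD, n = 4) over Ly6D+Gfra2-, against 6.43 ± 4.89 CPM (SD, n = 3) over Ly6D+Gfra2+ (log2 fold change -2.31, SE 0.80, edgeR adjusted p = 0.218; DESeq2 adjusted p = 0.0325). It was -3.11 without Ly6D+Gfra2+ replicate 4 and -1.93 without Ly6D+Gfra2+ replicate 5. Kif23, a motor of the central spindle, had log2 fold changes in Ly6D+Gfra2+ of -0.90 (SE 0.34, edgeR adjusted p = 0.269) against Ly6D+Gfra2- and -1.08 (SE 0.33, edgeR adjusted p = 0.121; DESeq2 adjusted p = 0.0276) against Ly6D-Gfra2-.

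The remaining named genes did not pass with either tool. In Ly6D+Gfra2+ against Ly6D+Gfra2- the log2 fold changes were 1.05 for Exo1, an exonuclease of DNA repair, 0.69 for E2f3, an activating E2F, and 1.15 for Espl1, the separase that cuts cohesin. Against Ly6D-Gfra2-, the values in Ly6D+Gfra2+ were 0.88 for Uhrf1, which maintains DNA methylation at the fork, 1.01 for E2f2, another activating E2F, 1.22 for Ckap2, a spindle protein, and 0.87 for Incenp, the scaffold of Aurora B. In Ly6D+Gfra2- against Ly6D-Gfra2-, the values were 0.91 for Dck, the deoxycytidine kinase, 0.99 for Slbp, which binds histone mRNA, and 0.76 for Pold1, the catalytic subunit of polymerase delta. Mybl2, which works with MuvB, had 1.25, Racgap1, a regulator of cytokinesis, 1.195, and Kif18b, a motor of astral microtubules, 0.75. Without Ly6D+Gfra2- replicate 1 the values were 0.41 for Racgap1, 0.44 for Slbp, 0.43 for Pold1, 0.77 for Mybl2 and 0.44 for Kif18b. Dck was 0.40 and Espl1 1.78 without Ly6D+Gfra2- replicate 5, and Exo1 was 0.38 without Ly6D+Gfra2+ replicate 4.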

How the data were processed

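RNA from sorted progenitors was extracted and amplified with kits of Qiagen and NuGEN, and sequenced as 1 library per sample, per the labels' protocols. The authors deposited whole-number read counts per RefSeq identifier, 1 file per library, and per the submitters' processing notes the tools were FastQC, HISAT, TopHat, HOMER and DESeq with genome build mm10. Their roles, versions, strand setting and treatment of reads that match several genes are not given in the sources used here. Of 24072 identifiers, 23815 were named from the RefSeq table of GRCm38.p6 and 144 from GENCODE, and 113 had no name. The identifier with the most counts, NR_046233, took 9.13% to 11.6% of a prefix P library and 2.07% to 7.44% of a prefix T library. Within prefix T its share was 2.07% to 3.75% in Ly6D-Gfra2-, 3.37% and 4.86% in Ly6D+Gfra2- and 4.40% to 7.44% in Ly6D+Gfra2+.

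Counts were tested as deposited with edgeR 4.0.16 in R 4.3.3: TMM scaling, a filter on low counts (filterByExpr with settings of 10 for the count and 15 for the total; 12722 identifiers left), a model of group and library prefix over all 13 libraries, quasi-likelihood tests and Benjamini-Hochberg adjustment over all tested identifiers, with calls at an adjusted p under 0.05. The SE is the log2 fold change over the root of F. A count of 3, taken as the limit that 0 allows, equals 0.133 to 0.389 CPM, for counting error only. Alternatives were DESeq2 1.42.0, other scalings, no filter, no prefix term, a replicate block, single prefixes, only the groups compared and single libraries left out. No files of a group were identical.

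The 38 members, the further cell cycle genes and the marker lists were chosen with earlier results of these data known. Beyond fixed members of each role, values per library are given for the 3 members of each phase with the smallest p in each comparison. For Ly6D-Gfra2- the lowest, median and highest values of these genes are given instead. Up to 3 further genes of each phase are named by the same order. On simulated data with known changes, 45%, 26% and 40% of 4-fold changes and 85%, 73% and 71% of 16-fold changes were called in the 3 comparisons, in the order of the report. The changed genes were drawn at random from all tested genes, and no prefix effect was simulated. The rates are therefore not those of the 38 members. Figures used matplotlib 3.10.9.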

Additional observations from a re-analysis of the deposited data

Results flagged for a closer look

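In 76 sets of values (each of the 38 genes in each of the 2 groups with 4 or more libraries), 5 had 1 library far from the rest by Dixon's criterion, and chance flags about 1 in 20. Ly6D+Gfra2- replicate 1, the library with fewest genes detected in its group, had 2 of the 5. Its Cdt1 level, for the helicase loader, was 262 CPM against 47.0 to 69.6 CPM in the other 3, and its Mki67 level was 1694 CPM against 2716 to 2889 CPM. Ly6D-Gfra2- replicate 4 had 2 others. Its level of Ccnb1, a cyclin of mitotic entry, was 55.6 CPM against 15.4 to 29.9 CPM, and that of Ube2c, an enzyme of anaphase degradation, was 226 CPM against 142 to 173 CPM. The library labelled Ly6D-Gfra2- replicate 3, which holds Ly6d RNA, had Ccne2, an E cyclin, at 39.3 CPM against 20.8 to 25.6 CPM.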

How the results depend on the processing

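No member was called by edgeR under any of its 23 settings, and the smallest adjusted p of a member was 0.0785, for Tyms in Ly6D+Gfra2+ against Ly6D+Gfra2- without Ly6D+Gfra2+ replicate 6. With the comparisons in the order of the report, the genes called among all were 0, 52 and 177. They were 9, 164 and 318 with no filter on low counts, 20, 545 (220 higher, 325 lower) and 789 (338 higher, 451 lower) with DESeq2, 1, 9 and 62 within prefix T, and 5, 26 and 59 without the 3 libraries that stand apart, a setting chosen after seeing the data. With the replicate block they were 8, 25 and 92. Deviations of same-numbered libraries from the means of their group and prefix had correlations of -0.0215 to 0.039. Each of those means rests on few libraries, so this check cannot tell whether the numbers pair libraries. With no prefix term the second count was 103, and with only the 2 groups compared the second and the third were 8 and 72. Leaving out single libraries gave 0 to 16 (16 without Ly6D-Gfra2- replicate 3), 12 to 184 (without Ly6D+Gfra2- replicate 5 and Ly6D+Gfra2+ replicate 6) and 49 to 372 (without Ly6D-Gfra2- replicate 5 and Ly6D+Gfra2+ replicate 6).

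Scaling by library size alone moved the median of all genes to -0.15 in the second comparison and -0.25 in the third. The replication medians became -0.49 and -0.31, the mitosis median in the third -0.17, and the third count 111 (45 higher, 66 lower), with a split of 15 higher to 33 lower in the second. The log2 fold changes that turned sign were at most 0.27 in size over all libraries, except Cdk1 from 0.78 in the first and -0.44 in the second, and Ccnb1 from -0.40 in the third. With library size alone the ones that turned were Mcm2 in the second (-0.11) and the third (-0.013), and Pcna (-0.19) and Top2a (-0.23) in the third. With no prefix term they were Ccnb1 (0.17), E2f1 (-0.00416) and Mcm2 (-0.073) in the second and Mki67 (0.043) in the third. Within prefix T they were Cdk1 in the first (-0.10) and second (0.14), and E2f1 (-0.11) and Mcm2 (-0.11) in the second. Within prefix P, which has no Ly6D+Gfra2+ library and so was not run for the other comparisons, they were E2f1 (-0.35) and Mcm2 (-0.13). With only the 2 groups compared they were Cdk1 (0.16), E2f1 (-0.10) and Mcm2 (-0.10) in the second. Without the 3 libraries that stand apart they were Cdk1 (0.15) in the second, and Mki67 (0.024) and Rrm2 (0.12) in the third. Leaving out single libraries gave, in the first comparison, E2f1 -0.30 to 0.43, Mcm2 -0.056 to 0.30 and Mki67 -0.047 to 0.22. In the second it gave Ccnb1 -0.35 to 0.13, Mcm2 -0.088 to 0.43, E2f1 -0.15 to 0.98, Cdk1 -0.93 to 0.066 and Pcna -0.18 to 0.064. In the third it gave Rrm2 -0.36 to 0.13, Ccnb1 -0.69 to 0.014, Top2a -0.052 to 0.10 and Mki67 -0.16 to 0.011. The cause was not tested in any of these.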
